A study of Homo sapiens with 6 samples.

Results

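The genes described here encode the machinery that docks, primes and fuses synaptic vesicles, together with the related proteins that serve other membrane fusion steps. They were taken by gene symbol: synaptotagmins (SYT), synapsins (SYN1 to SYN3), SV2 proteins, synaptophysin and its relatives, syntaxins (STX), STXBP proteins, SNAP and VAMP proteins, RAB3, RIMS and UNC13 proteins, complexins (CPLX), NSF, NAPA and NAPB. The symbols matched 76 of the 32862 rows of the table, for 75 distinct symbols, because VAMP7 has 2 rows. RNA was measured by sequencing of poly(A)-selected RNA of SH-SY5Y, a human neuroblastoma cell line with sympathetic neuronal features. There were 3 untreated libraries of cells with OTULIN, a deubiquitinase of linear ubiquitin chains, knocked out by CRISPR-Cas9 (OTULIN KO), and 3 untreated libraries of wild-type cells (WT), all given the same batch number. Whether the KO cells were 1 clone, and whether the replicates were grown apart, is not in the labels. The p-values below therefore cover only the spread among these 6 libraries, and that spread may be technical.

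In a neuron, a SNARE complex of syntaxin and SNAP-25 on the plasma membrane and VAMP on the vesicle drives fusion, and synaptotagmins couple it to calcium. Munc13 (UNC13) proteins guide the assembly, complexins clamp and promote it, RIM proteins and RAB3 hold vesicles at the release site, and NSF with its adaptors takes spent complexes apart. Sympathetic-like cells such as SH-SY5Y use the same proteins for dense-core vesicles that carry catecholamines and peptides. Other syntaxins, VAMPs and SNAPs act at the Golgi, endosomes and lysosomes of every cell.

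The libraries labelled OTULIN KO held 725827 to 862932 counts and the WT libraries 61772795 to 64352333, a ratio of the means of 78.5 between WT and KO. OTULIN itself had no count in any KO library, against 1682, 2101 and 2155 counts in WT, at least 25.2-fold lower, but this does not check the labels, since 71.3% of all tested genes were at 0 in the KO libraries. Of 10 noradrenergic neuroblastoma markers, 6 were at 0 in KO, among them DBH, GATA3, PHOX2A and CHGA, and their summed level was 525 to 696 CPM (counts scaled to 1000000 counts per library) in KO and 6217 to 6877 CPM in WT. The noradrenergic regulators HAND2 and ISL1 did have counts in all 3 KO libraries. Markers of epithelial cells summed to 17.3 to 68.4 CPM in the KO libraries and 3.53 to 35.6 CPM in the WT libraries, with counts in KO for 5 of 5. Each of these 5 had its highest WT count in replicate 3, with KRT5 at 34, 21 and 1042 counts in the WT libraries. Those of blood and microglia summed to 4.64 to 26.2 CPM in the KO libraries and 0.466 to 3.12 CPM in the WT libraries, with CD74 and TYROBP at 0 in KO. Markers of glia and endothelium summed to 0 to 26.7 CPM in the KO libraries and 0.109 to 1.41 CPM in the WT libraries, with AQP4, GFAP and VWF at 0 in KO. Among all genes expected above 100 counts per KO library at their WT share, 47.5% were listed at exactly 0 in all 3. Whether a KO value of 0 stands for little RNA or for reads or values lost before the table was made cannot be told from the files, and every bound of the form "at least N-fold lower" takes the 0 as a count. The part of depth, composition and these marker levels in the results was not tested. In RNA from whole cultures, fewer cells of a type and less RNA per cell cannot be told apart.

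Most genes of vesicle release had no count in the KO libraries, as did most rows of the table, and a few members held nearly all of the members' KO counts. Of the 76 rows, 10 had a count in all 3 KO libraries, against 4.74% of all rows of the table. A further 7 had a count in 1 or 2 of them and 59 in none (88.9% of all rows had none). In all 3 WT libraries 69 had a count, against 23294 of all 32862 rows. In any 1 KO library 7.02% to 7.81% of all rows had a count. The members held 0.164% ± 0.028 of all KO counts and 0.317% ± 0.0056 of all WT counts (SD, n = 3 each). SNAP25 alone made up 37.9% of the members' counts in KO and 7.70% in WT. The 8 members SNAP25, SYT11, SYT6, SYT1, SYN2, SYT7, VAMP7 and SYN1 together made up 95.8% of the members' KO counts. No complexin, no RAB3 protein other than RAB3D, and no UNC13 protein had a KO count.

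**Figure D1:**
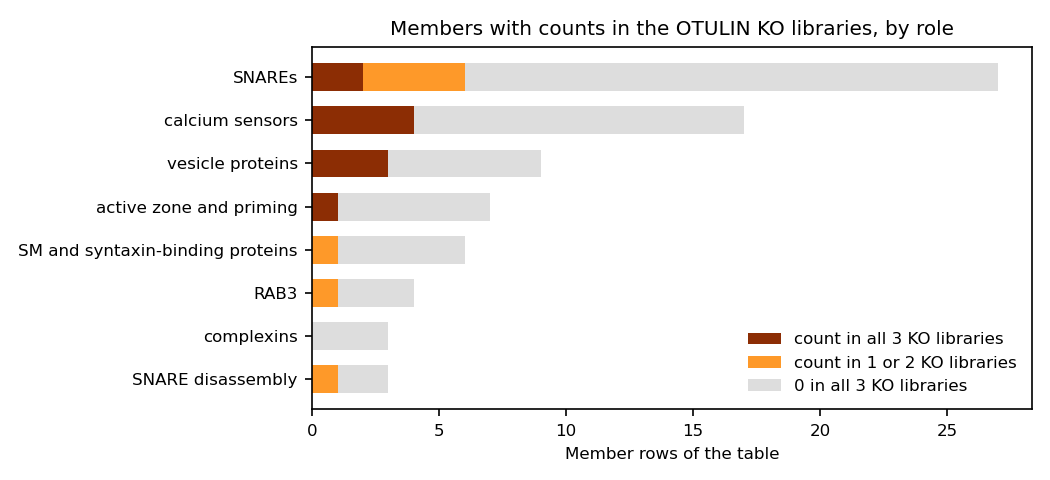
Number of member rows (horizontal axis) in each role (vertical axis), split by whether a row had a count in all 3, in 1 or 2, or in none of the OTULIN KO libraries. Calcium sensors (4 of 17 rows) and vesicle proteins (3 of 9) hold most of the 10 rows with counts in all 3, and complexins hold none. The calcium sensors here are all synaptotagmin rows, also those of synaptotagmins that do not bind calcium, such as SYT11.

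Of the 76 rows, 51 had a mean of at least 1 FPKM (fragments per kilobase, scaled to 1000000 fragments) over the 6 libraries and were tested. Of these 51, 6 were called higher in KO, 42 lower, and 3 were not called. A call was an adjusted p under 0.05 in edgeR's quasi-likelihood test, with Benjamini-Hochberg adjustment over all 10820 tested genes. Over all tested genes 7.63% were called higher and 88% lower. With a minimum of 5 FPKM, 18 of 25 tested members were called lower, against 81.6% of all genes at that minimum, and 5 higher, against 13.8%. With the replicate number as a block, 1 member was called higher (SYN2) and 1 lower (SV2C), against 4.18% and 2.67% of all genes. The KO and WT values did not overlap for any of the 51 tested rows, against 96.2% of all tested genes, so that separation between the groups was close to the background. Of the 51, 36 (70.6%) were at 0 in all KO libraries, against 71.3% of all tested genes, and 10 had a count in all 3, against 13.9%. With KO values at 0 set to a floor of 3 counts over the group, the median log2 ratio of mean CPM was -4.56 for the tested members and -4.54 for all tested genes. SYT6 and RIMS2 passed the minimum only through their KO values, so SYT6 had to differ. Without SYT6, 5 members are called higher, among them a row of VAMP7. Just inside the minimum were UNC13B at a mean of 1.04 FPKM, RIMS2 at 1.15 and RAB3C at 1.16, and just outside were SNAP23 at 0.869, STXBP5 at 0.695 and STX3 at 0.643.

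The members' KO counts were set beside those expected from their WT levels. If the WT share of counts held in KO, 5 members would have had over 100 counts per KO library. Of these SNAP25, SYT11 and SV2C had counts in all 3 KO libraries and 2, SYT4 among them, had none, while of all genes at that level 26.6% had counts in all 3. Of the 10 members expected at 50 to 100 counts, 9 were at 0 in all KO libraries, against 66.0% of all genes at that level. Of the 36 expected at 10 to 50 counts, 6 had counts in all 3 and 26 had none, against 7.91% and 81.2% of all genes.

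**Figure D2:**
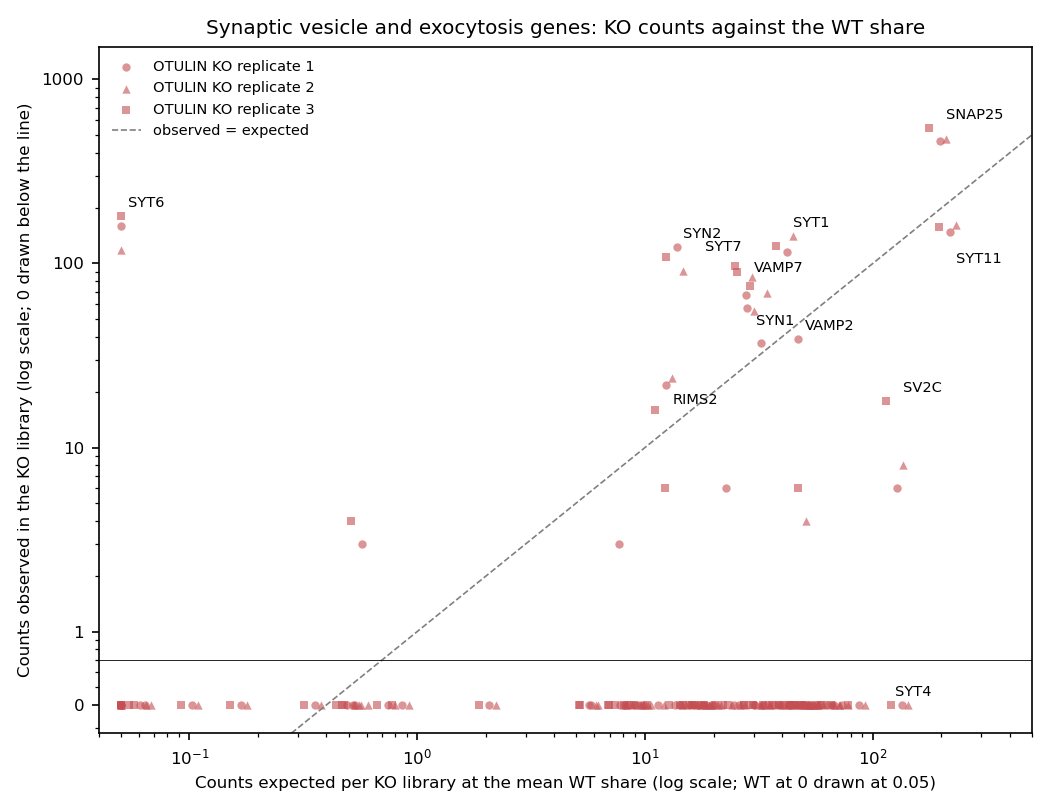
Counts observed in each OTULIN KO library (vertical axis, log scale, zeros below the line) against the counts expected at the mean WT share (horizontal axis, log scale), 1 symbol per library for 73 member rows, leaving out the second VAMP7 row and members not reported here. SNAP25, SYT1, SYN2 and SYT7 lie above the dashed line of equality, SYT11 and SV2C below it, and SYT4 at 0 with 132 counts expected.

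Promoters are shown for SYT1, SYT6, SYN1 and SYN2, which had counts in all 3 KO libraries, and for STX1A, which had none, to set the start regions of both kinds side by side. RefSeq (GRCh38.p14) gave a promoter for 60 of the 75 symbols, and the 250 bases before the start are printed. Only 1 start per symbol was used, and it can lie inside the gene's span, as for SYT1. Which start the counted transcripts used is not known. Capitals mark matches on either strand to the GC box (GGGCGG), the CCAAT box (CCAAT), the TATA box (TATAAA), the cAMP response element (TGACGTCA), the left part of the RE1 element (TTCAGCACC) and its right part (GGACAGCG), a silencer element bound by REST.
SYT1, chr12:78864524-78864773, plus strand: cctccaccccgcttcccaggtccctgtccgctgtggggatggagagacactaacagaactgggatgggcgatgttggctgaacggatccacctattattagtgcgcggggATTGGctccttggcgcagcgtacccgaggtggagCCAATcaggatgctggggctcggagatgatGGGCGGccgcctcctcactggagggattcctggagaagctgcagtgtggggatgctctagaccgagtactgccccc
SYT6, chr1:114153870-114154119, minus strand: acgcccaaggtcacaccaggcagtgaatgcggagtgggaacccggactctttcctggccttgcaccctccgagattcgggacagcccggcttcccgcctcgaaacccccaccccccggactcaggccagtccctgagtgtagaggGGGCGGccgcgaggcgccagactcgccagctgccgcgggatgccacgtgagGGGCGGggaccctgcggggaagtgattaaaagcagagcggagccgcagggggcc
SYN1, chrX:47619858-47620107, minus strand: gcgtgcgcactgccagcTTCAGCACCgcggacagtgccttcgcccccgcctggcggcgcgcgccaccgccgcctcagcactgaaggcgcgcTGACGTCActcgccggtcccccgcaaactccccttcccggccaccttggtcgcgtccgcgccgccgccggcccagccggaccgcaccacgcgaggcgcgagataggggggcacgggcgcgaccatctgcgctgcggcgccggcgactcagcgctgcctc
SYN2, chr3:12004138-12004387, plus strand: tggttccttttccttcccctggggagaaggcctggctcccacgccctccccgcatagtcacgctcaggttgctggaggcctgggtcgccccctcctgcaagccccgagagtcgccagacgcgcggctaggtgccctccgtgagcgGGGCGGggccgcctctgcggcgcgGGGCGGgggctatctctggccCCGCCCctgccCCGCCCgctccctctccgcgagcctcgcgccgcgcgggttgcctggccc
STX1A, chr7:73719670-73719919, minus strand: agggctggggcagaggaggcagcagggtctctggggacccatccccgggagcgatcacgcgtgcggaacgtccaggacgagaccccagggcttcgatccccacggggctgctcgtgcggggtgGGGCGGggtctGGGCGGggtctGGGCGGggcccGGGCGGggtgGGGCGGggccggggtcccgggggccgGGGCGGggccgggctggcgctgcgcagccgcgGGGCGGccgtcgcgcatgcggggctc
The SYN1 promoter was the only member's with the left RE1 part, 233 bases before the start, which 0.3% of all 27305 promoters hold, and it also held a cAMP response element 159 bases before the start (1.77% of all). The SYN2 promoter held 4 GC boxes and neither of these. GC boxes were found in 4 of the 7 promoters of members with counts in all 3 KO libraries and in 23 of 30 of the tested members at 0 there, against 42.3% of all promoters. A CCAAT box was in 2 of the 7 and 6 of the 30 (33.0% of all), a TATA box in none of the 7 or the 30 (11.1% of all), and the right RE1 part in none of the 7 and 1 of the 30 (1.31% of all). The cAMP response element was in 1 of the 7 and 2 of the 30. Only exact matches were counted, so the letters ggacagtg, shortly after the left RE1 part in SYN1, were not taken as the right part. These letter matches are a description of the windows and not sites of binding.

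The synaptotagmins, all grouped here as calcium sensors although some, such as SYT11, do not bind calcium, differed in direction from one another. Of 17 synaptotagmin rows, 8 were tested, and 3 were called higher, 4 lower and 1 not called. These are 37.5% higher and 50% lower of few rows, against 7.63% and 88% of all tested genes. Calls higher were common among genes with KO counts. Of the 1496 tested genes with at least 30 KO counts, 767 were called higher, beside 3 of 4 such synaptotagmins. One of the 3 called higher, SYT6, was tested only because of its KO level. SYT1, the sensor for fast release of synaptic vesicles (ENSG00000067715, chr12:78863993-79452008, plus strand, hg38), was at 142, 163 and 171 CPM in KO on 115, 141 and 124 counts, against 52.5, 52.7 and 50.8 CPM in WT on 3266, 3389 and 3136 counts. Every KO value lay above every WT value, 3.05-fold higher in the means, and SYT1 was called higher (log2 change 1.22, SE 0.11, edgeR adjusted p = 3.6e-05). SYT7, a slow, high-affinity sensor that acts in dense-core vesicle release (chr11:61515313-61581148, minus strand), was at 82.8, 97.3 and 134 CPM in KO against 38.1, 33.4 and 31.3 CPM in WT. It rose about as much as SYT1, by 3.05-fold in the means, with no overlap (log2 change 1.21, SE 0.18, edgeR adjusted p = 0.00047).

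SYT6, a synaptotagmin known from acrosome exocytosis of sperm (ENSG00000134207, chr1:114089291-114153880, minus strand), had counts only in KO. It had 159, 118 and 181 counts in the KO libraries, 196, 137 and 249 CPM, and 0 in each WT library despite their greater depth. Against a floor of 3 counts over the WT group, 0.0159 CPM, it was at least 12190-fold higher. It reached the minimum for testing through its KO values alone and so had to differ, and its call is no support. Across the data 67 genes had no count in any WT library, and their median was 4 counts over the KO group. SYT6 ranked 2 among them with 458 counts.

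SYT11, a synaptotagmin that does not bind calcium and acts in vesicle trafficking and endocytosis (chr1:155859567-155885199, plus strand), had the highest FPKM of all members in WT. It was at 184, 188 and 216 CPM in KO against 256, 270 and 280 CPM in WT, so that all KO values lay below the WT values (log2 change -0.85, SE 0.11, edgeR adjusted p = 0.00021). SYT4, a synaptotagmin of dense-core vesicles, had no KO count, against 9206, 10687 and 11280 counts in WT, and was at least 132-fold lower. SYT5 was likewise at 0 in KO against 61.4 ± 4.4 CPM in WT, at least 49.1-fold lower. SYT14 had no KO count and 463, 3287 and 3301 counts in WT, where replicate 1 stood far below the other two, and it was not called (edgeR adjusted p = 0.075). Without that library SYT14 was called lower (edgeR adjusted p = 0.00038), as it was with median-ratio factors (edgeR adjusted p = 0.044), DESeq2 and limma.

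Within the synaptotagmin family the make-up by FPKM therefore differed between the groups. SYT11 took 35.8% ± 2.9 of the family's summed FPKM in KO libraries and 42.4% ± 0.25 in WT libraries (SD, n = 3 each). SYT6 took 35.5% ± 5.7 in KO and 0% in WT. SYT4 took 0% in KO and 31.4% ± 1.7 in WT. SYT1 took 15.9% ± 2.3 in KO and 4.50% ± 0.30 in WT, and SYT7 took 12.8% ± 1.6 in KO and 3.73% ± 0.58 in WT. These are shares of a sum, so each depends on the others.

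**Figure D3:**
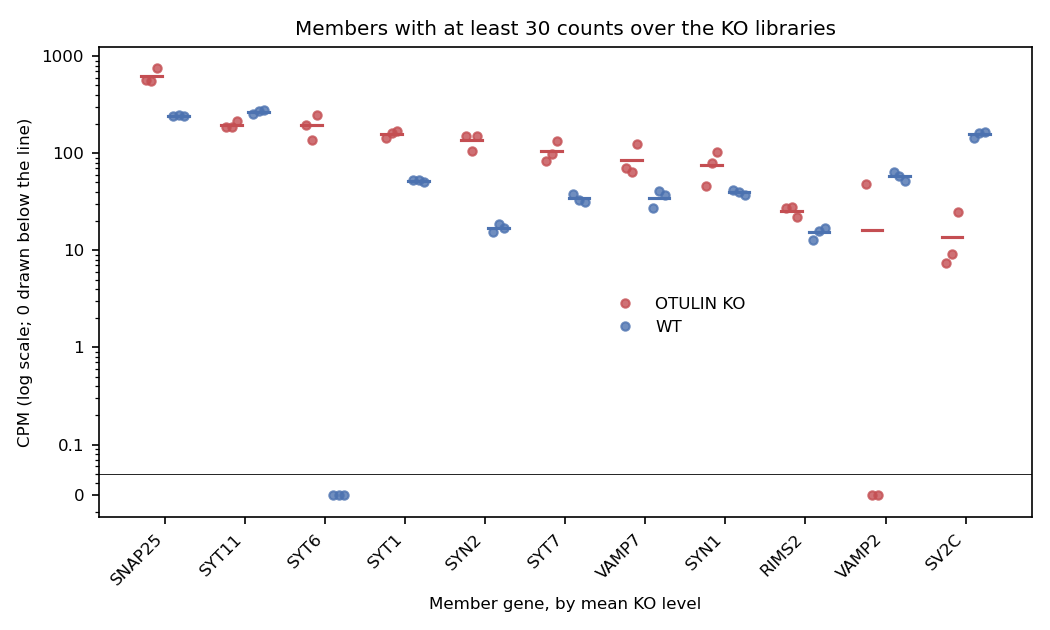
CPM (vertical axis, log scale, zeros below the line) in each library of the 11 member rows with at least 30 counts over the KO libraries, with OTULIN KO left of WT for each gene. Points are libraries and bars are group means. SYN2 shows the widest separation above a detected WT level (135 against 17.05 CPM), and SYT6 is at 0 in WT.

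The proteins of the vesicle surface were split within families. SYN1 and SYN2 encode synapsins, which tether vesicles in the reserve pool. SYN2 (chr3:12004388-12192032, plus strand) was at 152, 105 and 149 CPM in KO on 123, 91 and 108 counts, against 15.5, 18.5 and 17.2 CPM in WT. It was 7.94-fold higher with no overlap (fitted log2 change 2.58, SE 0.12, edgeR adjusted p = 1.1e-05), the largest rise among members detected in both groups. SYN1 (chrX:47571901-47619857, minus strand) was at 45.7, 80.0 and 103 CPM in KO against 42.2, 40.2 and 36.8 CPM in WT. The KO values were all above those of WT but spread widely, and SYN1 did not pass the threshold (log2 change 0.54, SE 0.24, edgeR adjusted p = 0.070). Without KO replicate 1 SYN1 was called higher (log2 change 0.83, edgeR adjusted p = 0.00074). TIMP1 lies within SYN1 on the opposite strand and was at 0 in KO and 8.73 CPM in WT. ARAF overlaps SYN1 on that strand too, and was at 0 in KO and 39.6 CPM in WT, beside 39.7 CPM for SYN1 in WT. Whether counting used strand is not given, so the reads of SYN1 and of these genes cannot be told apart with certainty. SYN3 was at 0 in KO and under the minimum for testing.

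SV2A, the vesicle glycoprotein that binds levetiracetam, had no KO count and 6822, 6739 and 6588 counts in WT, at least 85.5-fold lower. Its relative SV2C (chr5:76083383-76353939, plus strand), a receptor for botulinum toxin, was at 7.41, 9.27 and 24.8 CPM in KO against 145, 162 and 165 CPM in WT. All KO values lay far below WT, 11.4-fold lower in the means and 18.9-fold without KO replicate 3 (log2 change -3.95, SE 0.30, edgeR adjusted p = 2.2e-05). The genes RAP1BL and HMGN2P4 lie within SV2C on the opposite strand and were at 180 and 43.9 CPM in KO, against 0.796 and 0.282 CPM in WT. Strand use in counting is not given, so the reads of SV2C and of these genes cannot be told apart with certainty. SYP, synaptophysin, an abundant vesicle membrane protein, had no KO count against 60.3 ± 3.2 CPM in WT (SD, n = 3), at least 48.2-fold lower.

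Among the 3 partners of the neuronal SNARE complex, SNAP25 was the only member called higher. SNAP25 (ENSG00000132639, chr20:10172395-10308258, plus strand) was at 568, 552 and 748 CPM in KO on 460, 476 and 543 counts, against 240, 248 and 244 CPM in WT on 14938, 15943 and 15052 counts. It was 2.55-fold higher with no overlap (log2 change 0.95, SE 0.12, edgeR adjusted p = 0.00024). Its partner STX1A, a plasma membrane syntaxin, had no KO count against 4464, 4538 and 4200 counts in WT, at least 56.0-fold lower. VAMP2, the main vesicle SNARE of neurons, had 39, 0 and 0 counts in KO against 3958, 3786 and 3201 in WT. It was called lower (log2 change -2.24, SE 0.78, edgeR adjusted p = 0.028), but all its KO counts came from replicate 1, without which it was at 0 in KO. The call was lost with library totals, with no minimum level, with DESeq2, with limma on FPKM, and without any one of the other 5 libraries (adjusted p from 0.054 to 0.23). VAMP1 was at 0 in KO, at least 7.68-fold lower.

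The SNAREs as a group were at 0 about as often as all genes. Of all 27 SNARE rows 21 were tested, 2 were called higher and 19 lower, and 16 of the tested rows were at 0 in KO. These are 90.5% lower and 76.2% at 0, against 88% and 71.3% of all tested genes. SNAP29, which acts in autophagosome fusion, SNAP47, VAMP3 and STX12 of the endosome, and STX16 of the Golgi were at 0 in all KO libraries, with VAMP3 at least 39.9-fold and STX16 at least 62.8-fold lower. STX10, a Golgi syntaxin with the third highest FPKM of the members in WT, had 0, 0 and 6 counts in KO against 4363, 4134 and 3715 in WT, 23.5-fold lower, and was at 0 without KO replicate 3. STX17, a syntaxin of autophagosomes, had 6, 0 and 0 counts in KO, 11.3-fold lower, and was at 0 without KO replicate 1. STX3 had 3, 0 and 0 counts in KO, 7.67-fold lower with a 95% counting interval from 2.59 to 36.7, and was not tested.

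VAMP7, a SNARE of lysosomes and of neurite outgrowth, lies in a region shared by the X and Y chromosomes and has a row for each copy, so that reads can be split between near-identical sequences. The row on chromosome X (155881345 to 155943769, plus strand) was at 70.4, 63.7 and 124 CPM in KO against 27.1, 40.4 and 36.9 CPM in WT, and was called higher (log2 change 0.89, SE 0.27, edgeR adjusted p = 0.016). The other row was at 0 in KO and called lower. Summed over both rows, VAMP7 averaged 86.0 ± 33 CPM in KO libraries and 58.1 ± 4.7 CPM in WT libraries (SD, n = 3 each), with a fitted change of 0.15 on the log2 scale that did not pass the threshold (edgeR adjusted p = 0.50). The call of the X row was also lost under median-ratio factors (log2 change 0.33, edgeR adjusted p = 0.20), with DESeq2, with no minimum level or a minimum of 5 FPKM, without KO replicate 3 (edgeR adjusted p = 0.062) and without WT replicate 1 (edgeR adjusted p = 0.053). The 2 calls on its rows thus went opposite ways and ended when the rows were summed, which leaves 5 members called higher of 50. SYT6, whose call is no support, is still among these 5, beside SYN2, SYT1, SYT7 and SNAP25.

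The genes of SNARE disassembly had 4 KO counts among them. NSF, the ATPase that takes SNARE complexes apart, had 0, 4 and 0 counts in KO against 3243, 4182 and 3708 in WT, 38.2-fold lower with a 95% counting interval from 13.8 to 129.9, and at 0 without KO replicate 2. Its adaptors NAPA (alpha-SNAP) and NAPB (beta-SNAP) were at 0 in KO, with NAPA at least 65.6-fold and NAPB at least 38.8-fold lower. NSF, NAPA and NAPB were all called lower, as were 88% of all tested genes. STXBP2, a syntaxin-binding protein known from cytotoxic and mast cell granules, had 3, 0 and 4 counts in KO and 35, 22 and 75 in WT. Its CPM overlapped between the groups and it was not tested.

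Of the 11 rows of RAB3, RIMS and UNC13 genes, 9 had no KO count, as did 88.9% of all rows of the table. RAB3A, the main RAB3 of synaptic vesicles, had no KO count against 1694, 1490 and 1133 counts in WT, at least 18.3-fold lower. RAB3D, known from secretory granules of exocrine cells, had 0, 0 and 6 counts in KO against 1112, 1042 and 1008 in WT. It was 6.10-fold lower on these counts and at 0 without KO replicate 3. UNC13A (Munc13-1), which opens syntaxin for priming, and UNC13D, known from cytotoxic granules, were at 0 in KO, with UNC13A at least 66.5-fold and UNC13D at least 50.2-fold lower. RIMS3 and RIMS4 were also at 0 in KO, with RIMS3 at least 48.5-fold and RIMS4 at least 53.4-fold lower, and RIMS1 was at 0 in KO and under the minimum for testing. RIMS2, the only RIMS gene with KO counts, was at 27.2, 27.8 and 22.04 CPM in KO against 12.8, 15.8 and 17.1 CPM in WT, with no overlap. RIMS2 did not pass the threshold (log2 change 0.37, SE 0.19, edgeR adjusted p = 0.098). Without WT replicate 3 it was called higher (log2 change 0.49, edgeR adjusted p = 0.045). By its WT level alone RIMS2 was under the minimum for testing, so a call of it as higher is no support.

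The complexins CPLX1 and CPLX2, which bind the assembled SNARE complex, had no KO count. CPLX1 had 2783, 2379 and 1906 counts in WT and was at least 29.995-fold lower in KO, and CPLX2 had 6092, 5880 and 5041 counts in WT and was at least 72.2-fold lower. Of the release genes listed in the naming rule, KO counts in all 3 libraries were present for SNAP25, SYT1 and SYN1, and absent from all 3 for STX1A, VAMP1, SYT4, RIMS1, SYP, SV2A, RAB3A, CPLX1, CPLX2, UNC13A, NAPA and NAPB. VAMP2 and NSF had counts in 1 KO library each.

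The size and, for some members, the direction of these changes depended on the scaling of the libraries. Among the 1496 tested genes with at least 30 KO counts, which are selected for having KO counts, the median log2 change was 0.57 with the TMM factors used here, 0.96 when only library totals were used and 0.01 under median-ratio factors. Relative to that median under TMM, SYN2 stood 2.02 above it, SYT1 0.65, SYT7 0.64, SNAP25 0.38 and the X row of VAMP7 0.32. SYN1 lay 0.03 and RIMS2 0.20 below the median, as log2 differences of -0.03 and -0.20, while SYT11 lay at -1.42 and SV2C at -4.51. SYN2, SYT1, SYT7 and SNAP25 were called higher under all 3 scalings, with SNAP25 0.39 higher on the log2 scale (SE 0.09, edgeR adjusted p = 0.0042) under median-ratio factors. SYN1 and RIMS2 turned to -0.03 and -0.19 under median-ratio factors, without a call, and were called higher with library totals. The call of RIMS2 is no support, since it reached the minimum for testing only through its KO values.

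**Figure D4:**
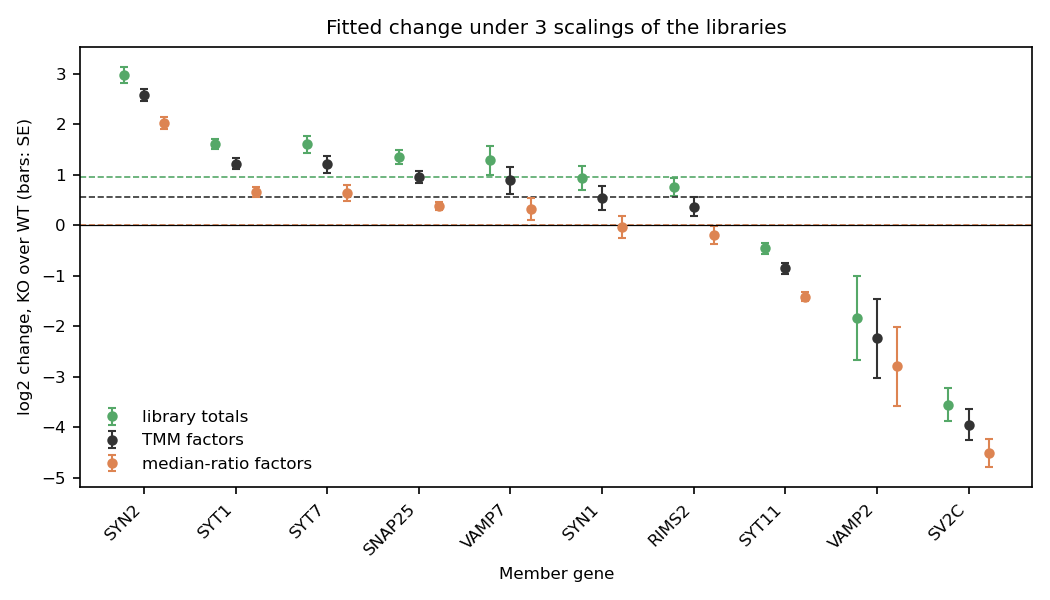
Fitted log2 change of KO over WT (vertical axis, bars are SE) for 10 member rows with at least 30 KO counts under 3 library scalings, with dashed lines at the median of all 1496 such genes under each. SYT6, at 0 in WT, is left out. SYN2, SYT1, SYT7 and SNAP25 lie above the median line under each scaling and SYT11 and SV2C below it, while SYN1 and RIMS2 change side of 0.

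Levels between members in WT depended on the length by which counts are divided. By the authors' FPKM the order in WT of the members named here was SYT11 at 47.5 ± 2.1, SYT4 at 35.2 ± 3.6 and STX10 at 33.1 ± 2.6 FPKM (SD, n = 3), then SV2A at 20.5 ± 0.49, STX1A at 17.4 ± 0.50, VAMP3 at 16.7 ± 1.0 and VAMP2 at 15.7 ± 1.6 FPKM. SYT4 and STX10 did not differ beyond their spread, nor did STX1A, VAMP3 and VAMP2 among themselves. CPLX1 at 14.6 ± 2.7 and STX16 at 14.2 ± 0.39 FPKM followed, and SNAP25 ranked 17 with 11.0 ± 0.17 FPKM. The gene length implied by SNAP25's counts and FPKM was 22.2 kb, 10.8 times its longest protein-coding transcript in GENCODE 29 (2.05 kb), the largest such ratio among 67 member rows, whose median was 1.46. Per kilobase of that transcript SNAP25 ranked first in WT at 119 ± 1.9 CPM per kb, ahead of STX10 at 52.2 ± 4.0 and SYT11 at 51.2 ± 2.3. On that scale SNAP25 was at 303 ± 53 CPM per kb in KO. The transcript in use is not known from gene counts, so neither scale gives a true molar order.

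**Figure D5:**
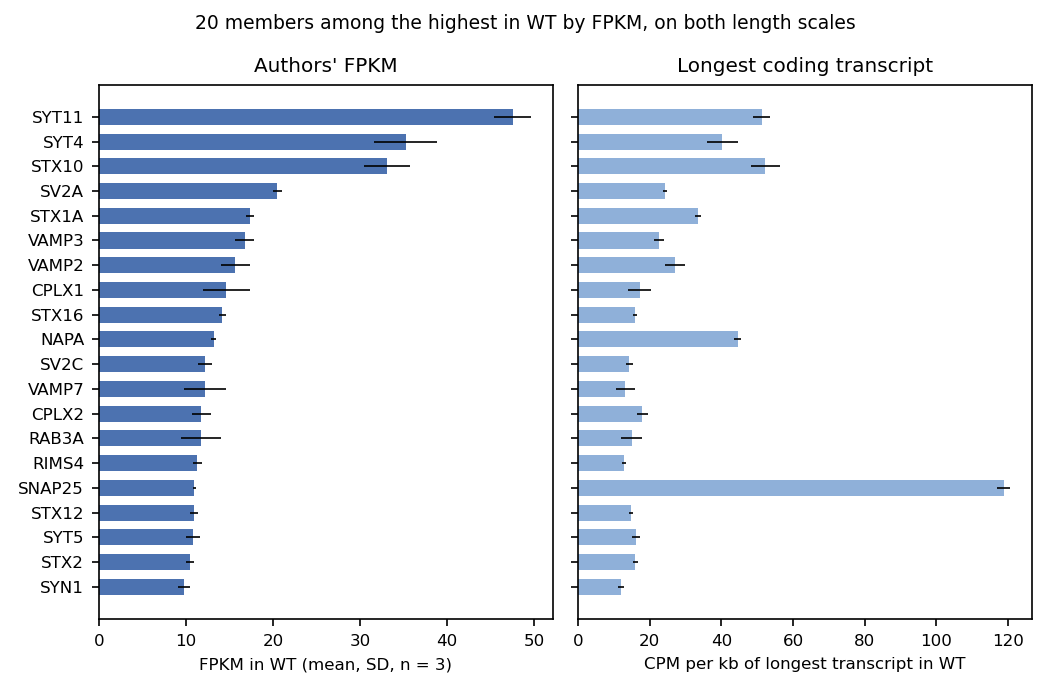
WT levels of 20 members among the highest by FPKM, top to bottom in that order, as the authors' FPKM (left, horizontal axis) and as CPM per kilobase of the longest GENCODE 29 protein-coding transcript (right, horizontal axis). Bars are means and lines SD of 3 WT libraries. SNAP25 moves to the highest level on the right, from 11.0 FPKM to 119 CPM per kb, while SYT11 is near 50 on both.

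Members with and without KO counts differed somewhat in their transcripts, as did all genes. The longest protein-coding transcript of the 10 tested members with counts in all 3 KO libraries had a median GC content of 46.0% (38.7% to 62.05%), against 53.3% (34.5% to 67.5%) for 35 of the 36 tested members at 0 there. For all tested genes these medians were 45.1% (1324 genes) and 49.3% (6764 genes). The median 3′ UTR was 2844.5 bases for the members with counts and 2079 for those at 0, against 2071.5 and 1175 bases for all tested genes. The ranges overlapped, and the groups were formed from the counts, so these values are a description.

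Genes that work beside the members, in vesicle recycling, docking and other fusion steps, were called at shares near those of all tested genes. Of 87 such genes 84 were in the table and 64 were tested, and 3 were called higher, 57 lower and 4 not called. These shares of 4.69% higher and 89.1% lower stand beside 7.63% and 88% of all tested genes. At 0 in all KO libraries were 39 of the 64 (60.9%), against 71.3% of all tested genes. With zeros at the floor, the median log2 ratio of mean CPM was -5.22, against -4.54 for all tested genes. ITSN1, a scaffold of clathrin-mediated endocytosis, had 179, 269 and 218 counts in KO against 3669, 3927 and 4017 in WT, 4.50-fold higher in CPM (edgeR adjusted p = 6.6e-05). PICALM, a clathrin adaptor that sorts VAMP proteins, had 158, 229 and 187 counts in KO against 5849, 6501 and 6380 in WT, 2.41-fold higher (edgeR adjusted p = 0.0017), a call lost under median-ratio factors (edgeR adjusted p = 0.071). SEC22A, a SNARE-related protein of the endoplasmic reticulum, was 8.08-fold higher at 109 ± 17 CPM in KO libraries and 13.5 ± 1.0 CPM in WT libraries (SD, n = 3 each; edgeR adjusted p = 1.2e-05).

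The largest decrease in measured CPM among these genes was in HSPA8, a chaperone that uncoats clathrin, with 2, 2 and 3 counts in KO against 71293, 75751 and 73882 in WT, 394-fold lower. AP2A2, a subunit of the clathrin adaptor AP-2, had 0, 2 and 0 counts in KO against 7560, 7950 and 7293 in WT. Fitted changes of genes at 0 in KO follow their WT level and the prior count, and by them the first 4 were RIMBP2, which links RIM proteins to calcium channels, EPN1, an endocytic adaptor, EXOC4, an exocyst subunit, and SH3GL1, an endophilin. All 4 were at 0 in KO, with RIMBP2 at least 195-fold, EPN1 at least 176-fold, EXOC4 at least 161-fold and SH3GL1 at least 114-fold lower. All 9 exocyst genes tested, all 8 other vesicle membrane proteins and all 7 tested genes of the active zone, priming and docking were called lower, beside 88% of all tested genes, so that counts this small are near the background. In vesicle recycling, 26 genes were tested, 2 were called higher (7.69%), 20 lower (76.9%) and 4 not called, beside 7.63% and 88% of all tested genes. Of these 26, 12 (46.2%) were at 0 in all KO libraries, against 71.3% of all tested genes. Counts in all 3 KO libraries were present for 8 of them, against 13.9% of all tested genes. Of the SNAREs outside the members, 12 were tested, 1 was called higher and 11 lower, also beside 7.63% and 88% of all tested genes.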

How the data were processed

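Poly(A)-selected RNA of 3 OTULIN KO and 3 WT libraries of SH-SY5Y cells was sequenced. The authors deposited raw whole-number counts per gene. They also deposited FPKM, named so per the file headers, made with gene lengths that are not stated. The submitters' processing notes list hg38, HISAT2 2.0.4, cutadapt 1.9, StringTie 1.3.4d and DESeq2 without saying what each did. Which annotation release was used, and whether counting used strand, is not given in the sources used here. Columns were matched to samples by library name. A few genes that the rules cover are counted but not reported here by name.

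Genes averaging 1 FPKM or more across the 6 libraries entered edgeR 4.0.16 in R 4.3.3 (glmQLFit, glmQLFTest), with TMM factors, total counts as library sizes and genotype as the only term. Adjustment was by Benjamini-Hochberg over all tested genes, with calls under 0.05. The printed SE is the size of the log2 change divided by the square root of F. CPM scale counts to 1000000 per library, and a fold is one mean CPM over the other. A gene at 0 in a group was set against 3 counts over that group (1.25 CPM in KO, 0.0159 CPM in WT), since the fitted change of such a gene moves with the prior count. In a single library 3 counts are 3.48 to 4.13 CPM in KO and 0.0466 to 0.0486 CPM in WT. These floors and the 95% Poisson intervals cover counting error only.

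The members, the lists and the naming rule were chosen with earlier results of these data known. The rule named OTULIN, members with a KO count, the 10 members highest in WT by FPKM, a list of release genes, members nearest the minimum, and, of the recycling and docking list, those called higher and the 4 largest fitted changes. SYT5, SYT14, SYN3, SNAP29, SNAP47, STX12, UNC13D, RIMS3, RIMS4, HSPA8 and AP2A2 were added after their values were seen. Replicate pairs differed by 15.5 to 41.7 in chi-square per degree of freedom, so each library counted once. Transcripts came from GENCODE 29 and promoters from RefSeq (GRCh38.p14). The alternatives were other minimum levels, scalings and tests (DESeq2 1.42.0, and limma 3.58.1 on log2 values of FPKM plus 1 or 0.1), a replicate block and leaving out each library. Added after the data were seen were the summed VAMP7 rows and the level per kilobase of the longest transcript. Python 3.11.15, pandas 2.3.3, numpy 2.4.6, scipy 1.17.1 and matplotlib 3.10.9 did the rest.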

Additional observations from a re-analysis of the deposited data

How the results depend on the processing

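Depth differed between KO and WT for every library, so the alternatives change the scaling or the set of libraries but not that difference, and in a KO library a gene under about 4.13 CPM may go undetected. Leaving out each library in turn gave 5 to 7 members called higher and 41 to 42 lower, 3 to 4 recycling and docking genes called higher and 56 to 60 lower, and a members' share of counts of 0.148% to 0.175% in KO and 0.315% to 0.320% in WT. With a minimum mean of 5 FPKM, 18 members and 25 recycling and docking genes were called lower, of 25 and 30 tested, since fewer genes entered the test. Of summed FPKM, the members took 0.0486% in KO and 0.180% in WT. RIMS2 turned to a log2 change of -0.19 with median-ratio factors and with DESeq2, and SYN1 to -0.029 with median-ratio factors and -0.0294 with DESeq2, all without a call. SYN2 was called higher under every alternative run, and SNAP25, SYT1 and SYT7 under every one except the replicate block. With the replicate number as a block, 1 member was called higher and 1 lower, and 1 recycling and docking gene higher and 3 lower. The deviations of same-numbered KO and WT libraries had correlations of -0.005, -0.001 and 0.046 over 1496 genes. Those of differently numbered libraries ran from -0.038 to 0.045. Genes with as few as 30 KO counts entered, where counting noise can hide a shared effect, so these values cannot decide whether the numbers pair the libraries.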
